A study of Mus musculus with 2 samples.

Results

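Nuclear hormone receptors are transcription factors, many of them switched by small fat-soluble molecules such as retinoic acid, steroids and oxysterols. The 44 genes described here were chosen by name as the nuclear receptor superfamily without the thyroid hormone receptors, and all 44 were found among the 43346 Ensembl genes of the tables. Forebrain RNA came from embryos of the B6NCrl mouse strain at 16.5 days of gestation. The series holds 1 group of 2 biological replicates, each a pool of both sexes, and the label of replicate 2 names 41 embryos. Each library was made from 10 ng of RNA above 200 nt, with ERCC spike-in RNAs added. No treatment or other genotype is named in the labels, and pooled sexes mean that no receptor level can be given for males or females alone. All differences below are therefore between these libraries, with 1 library on each side, and no test between conditions was possible.

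A nuclear receptor binds short DNA motifs through a zinc finger domain and, when a ligand fills its pocket, exchanges corepressors for coactivators. Many members work as heterodimers with a retinoid X receptor, steroid receptors bind as homodimers, and others, called orphan receptors, act without a known hormone. In the embryonic forebrain this family is known for the COUP factors that pattern the cortex and ganglionic eminences, for tailless in neural stem cells and for retinoic acid signalling in the striatum.

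Libraries held 31211097 and 26957152 expected counts on genes. Expected counts are the authors' estimates of the reads from each gene, and TPM divides them by transcript length and scales each library to the same sum, so TPM is the scale on which genes are compared here. A level of at least 1 TPM in each library was taken as detected, and 26 of the 44 receptors (59.1%) met it, beside 60.7% of the 21474 protein-coding genes. At 10 TPM or more, 11 receptors (25.0%) were detected, beside 40.9% of protein-coding genes. Their median was 3.43 TPM against 5.05 TPM over protein-coding genes. A further 15 receptors were below 1 TPM in both libraries, and Ppara, Ppard and Nr6a1 passed this level in 1 library only. Together the receptors summed to 475 TPM in replicate 1 and 472 TPM in replicate 2. Just 5 genes, Nr1h2, Nr2f2, Nr2f1, Rxrb and Rxrg, held 56.3% of that sum. The forebrain label was checked against telencephalon markers, and all 8 of them, led by Dlx1, reached 10 TPM in each library.

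**Figure D1:**
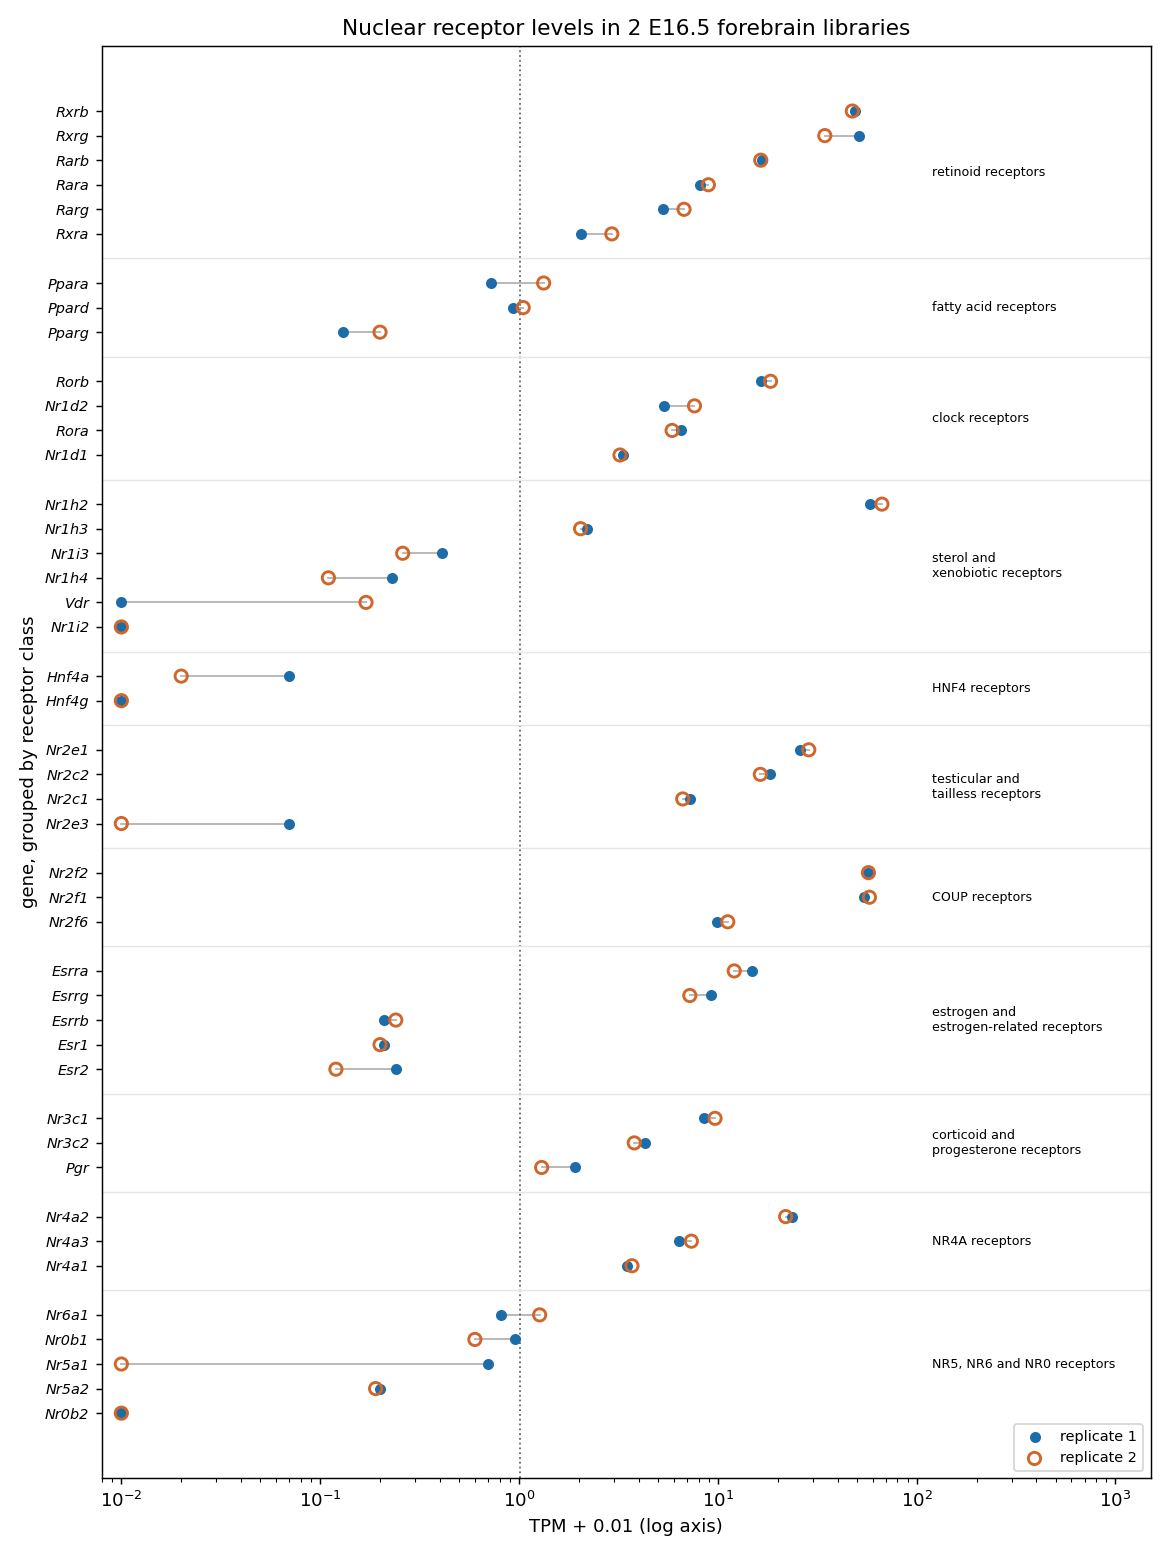
Level of each of the 44 receptors in the 2 libraries, as TPM plus 0.01 on a log axis, grouped by receptor class, with filled points for replicate 1, open circles for replicate 2 and a dotted line at 1 TPM. All retinoid, clock, COUP, corticoid and NR4A receptors lie at or right of the line in both libraries, whereas no fatty acid, HNF4, NR5, NR6 or NR0 receptor does so in both.

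All 6 retinoid receptors were detected, and their levels summed to 132 and 117 TPM (replicate 1 and replicate 2, an order kept below). The retinoic acid receptors bind retinoic acid, and the retinoid X receptors are the shared partners of many other nuclear receptors. Among the partners, Rxrb (chromosome 17, 34031812 to 34038399) was at 49.17 and 47.46 TPM (48.3 ± 1.21, SD, n = 2). Rxra was far lower, at 2.04 and 2.92 TPM. Within each library Rxrb exceeded Rxra by a log2 ratio of 4.25 ± 0.39 (SD, n = 2, with 0.1 TPM added to each level).

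Rxrg, the partner known for its restricted expression in the striatum (chromosome 1, 167598384 to 167639623), was at 51.16 and 34.51 TPM. It was above Rxrb in replicate 1 and below it in replicate 2, so the libraries give no order for the pair. In pooled tissue, fewer cells of a type and less RNA per cell cannot be told apart. Of the Rxrg transcripts, only Rxrg-202 had more counts in replicate 2. Rxrg-201, Rxrg-203 and Rxrg-204, each with 1389 coding bases, had 1361.32 and 835.52, 224.03 and 71.37, and 162.94 and 20.59 counts. Rxrg-202, with 1020 coding bases, starts 19.9 kb downstream of Rxrg-201 and had 94.71 and 118.52 counts.

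Of the retinoic acid receptors, Rarb led with 16.67 and 16.43 TPM, followed by Rara with 8.12 and 8.95 TPM and Rarg with 5.3 and 6.75 TPM. The ranges of the 3 genes did not overlap. Within the libraries Rarb exceeded Rara by 0.95 ± 0.11 and Rarg by 1.45 ± 0.26 on the log2 scale. Rxrb exceeded Rarb by 1.54 ± 0.02, and this ratio differed little between the libraries. The starts of Rarg were used unequally, with Rarg-202, which starts 11.0 kb downstream of Rarg-201, at 79.27 and 71.3% of the gene's TPM. By the authors' posterior means this share was 40.18 and 38.48%, below Rarg-206 with 42.75 and 40.63%. Rarg-206, of 111 bases with 10 coding bases, had 0 expected counts in both libraries. The posterior means, with the share of Rarg-206 included, put Rarg at 10.07 and 12.55 TPM, above Rara at 8.3 and 9.38 TPM. The order of this pair thus depends on the estimator.

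Rarb is itself a textbook target of retinoic acid, through a direct repeat near its start that is shown here because it was the only such repeat found among the receptors. The 30 bases below are from the RefSeq promoter window of GRCm38.p6 (chr14:16575506-16575535, minus strand, first exon of Rarb-201 in GENCODE M21), with the repeat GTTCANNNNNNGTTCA and its spacer in capitals.

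Rarb: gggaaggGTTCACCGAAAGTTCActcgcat

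This repeat, searched on both strands, was found in 25 of 32851 RefSeq promoter windows (0.0761%), each reaching from 250 bases before to 50 bases after a start. The receptors had 61 windows for 41 of the 44 genes, and Rarb was the only gene among them with a match. The single core motif AGGTCA, by contrast, was in 18.0% of receptor windows and 16.3% of all windows. A match is a string of letters and says nothing on whether a receptor was bound there.

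Genes that supply and break down retinoic acid were present beside its receptors. Of 13 such genes, 9 were detected, and the list's median was 5.04 TPM. Among them were the retinoic acid binding protein Crabp1 at 46.16 and 37.91 TPM and the retinal reductase Dhrs3 at 13.46 and 23.71 TPM. Cyp26c1, a degrading enzyme, was at 0 counts in both. The synthesizing enzyme Aldh1a1 was the only gene of this list that differed by the rule given below, at 0.27 and 3.21 TPM (log2 ratio 3.47, interval 2.60 to 4.65).

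The COUP factors and tailless formed the other abundant group, with little difference between the libraries. Nr2f1 (COUP-TFI, chromosome 13, 78188973 to 78199757), a regulator of cortical area identity, was at 54.19 and 57.86 TPM. Nr2f2 (COUP-TFII, chromosome 7, 70351944 to 70366735), known in the caudal ganglionic eminence and its interneurons, was at 56.92 and 57.19 TPM. The pair was level, with a log2 ratio of Nr2f1 over Nr2f2 of -0.07 and 0.02. Nr2f6, the most divergent of the COUP factors, was lower at 9.9 and 11.21 TPM, and Nr2f2 exceeded it by 2.43 ± 0.12 on the log2 scale.

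Reads of Nr2f2 and Nr2f1 were assigned to separate starts. In Nr2f2, the transcript Nr2f2-201, with 1242 coding bases, held 71.49 and 71.77% of TPM. The rest was Nr2f2-202, which starts 6.14 kb upstream and has 843 coding bases. These shares differed between the libraries by less than 1 percentage point. Nr2f1 was more divided, with Nr2f1-201 at 39.66 and 47.89% and the 841-base Nr2f1-202 at 29.42 and 21.54%. Nr2f1-205 held 23.31 and 20.24% of TPM. By counts Nr2f1-205 came second, with 28.3 and 22.8%, and Nr2f1-202 held 10.6 and 7.24%.

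Nr2e1 (tailless, chromosome 10, 42561963 to 42583632), which keeps neural stem cells undifferentiated, was at 25.99 and 28.66 TPM, almost all of it Nr2e1-201 (96.89% in replicate 1 and the whole of it in replicate 2). Nr2f1 exceeded it by 1.03 ± 0.03 on the log2 scale. Its close relative Nr2e3, a photoreceptor factor, had 2 counts in replicate 1 and 0 in replicate 2, which allows up to 0.131 TPM there. Markers of pituitary and eye were likewise near 0, with summed levels of 0.53 and 0.48 TPM over the 7 of 8 genes matched. Both testicular receptors, orphan receptors despite their name, were detected, Nr2c2 at 18.37 and 16.35 TPM and Nr2c1 at 7.24 and 6.65 TPM. Nr2c2 exceeded Nr2c1 by 1.31 ± 0.03. Of Nr2c2, 36.64 and 23.3% of TPM was Nr2c2-203, a 1065-base transcript with 14 coding bases that held only 122 and 58 counts.

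Among the sterol receptors only the liver X receptors were detected. Nr1h2 (LXR beta, chromosome 7, 44549616 to 44553951), the oxysterol sensor expressed throughout the brain, had the highest level of the 44 genes, 58.16 and 66.87 TPM (62.5 ± 6.16, SD, n = 2). It lay at the 86.2 percentile of protein-coding genes. Counting only transcripts typed protein-coding, Nr1h2 was at 44.06 and 53.72 TPM, below Nr2f2 (56.92 and 57.19 TPM) and Nr2f1 (50.08 and 54.55 TPM), so its first place depends on the other transcripts. Nr1h3 (LXR alpha), the form of liver and macrophages, was at 2.19 and 2.03 TPM, and Nr1h2 exceeded it by a log2 ratio of 4.82 ± 0.22. The lead transcript of Nr1h2 was not the same in the libraries. Nr1h2-201 led in replicate 1 with 34.88% and Nr1h2-204 led in replicate 2 with 39.09%, both with 1338 coding bases.

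Genes downstream of LXR were all present. All 9 known targets listed were detected (median 30.4 TPM), led by the desaturase Scd2 (241.51 and 269.21 TPM), Apoe (223.67 and 274.21 TPM) and Fasn (76.55 and 72.81 TPM). None differed by the rule below. Enzymes of oxysterol and bile acid metabolism, not all of which make LXR ligands, were fewer. Only 3 of 7 were detected, Cyp46a1, the cholesterol hydroxylase of neurons (17.28 and 13.35 TPM), Hsd3b7 (7.01 and 9.91 TPM) and Cyp7b1 (3.56 and 3.84 TPM). Cyp7a1 and Cyp8b1, of hepatic bile acid synthesis, were at 0 counts. The level of a target in these tissues is not a measure of receptor activity.

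Receptors of bile acids, xenobiotics and vitamin D were near the limit of detection. Nr1h4 (FXR) was at 0.22 and 0.1 TPM and Nr1i3 (CAR) at 0.4 and 0.25 TPM. Nr1i2 (PXR) had 0 counts in both libraries, which allows up to 0.0651 and 0.0776 TPM. Vdr, the vitamin D receptor, had 0 counts in replicate 1, which allows up to 0.148 TPM, and 11 counts (0.16 TPM) in replicate 2. That limit stands for 3 counts, which in replicate 2 correspond to 0.0446 TPM, so the TPM values understate the difference. On scaled counts, Vdr in replicate 2 was 4.32-fold above a floor of 3 counts in replicate 1. That ratio takes the 11 counts as exact. The counting interval of the log2 ratio, replicate 2 over replicate 1, began at 1.56 and had no upper end. None of the 4 vitamin D metabolism genes reached 1 TPM in both libraries, and Gc, the vitamin D carrier, was at 0. The HNF4 factors of liver and gut were likewise scarce. Hnf4a was at 0.06 and 0.01 TPM and Hnf4g had 0 counts, which allows up to 0.0734 and 0.0875 TPM.

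The fatty acid receptors (PPARs) were low as a class, with summed levels of 1.75 and 2.55 TPM. Ppard was at 0.92 and 1.04 TPM, Ppara at 0.71 and 1.32 TPM, and Pparg, the fat cell regulator, at 0.12 and 0.19 TPM (4 and 5 counts). By the authors' posterior means, Ppara was at 1.72 and 2.26 TPM and Ppard at 1.29 and 1.48 TPM, so their detection depends on the estimator. These posterior levels include transcripts with 0 counts in both libraries. In replicate 1, Ppara-204, Ppara-205 and Ppara-206 held 15.04, 23.97 and 20.93% of Ppara, and Ppard-204 held 12.64% of Ppard. By the first estimate, Ppard and Ppara changed places between the libraries. PPAR target genes, many of them in fatty acid oxidation in every tissue, were nonetheless present, 8 of 9 detected, with the list's median at 13.3 TPM. Hadha (57.85 and 63.13 TPM) and Plin2 (30.44 and 37.18 TPM) were among them, and none differed by the rule below.

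The clock receptors, activators of the ROR family and repressors of the REV-ERB family that compete for the same DNA element, were all detected. Rorb (chromosome 19, 18930605 to 19111196), also known in the thalamus-recipient layer of the cortex and in the retina, led with 16.4 and 18.4 TPM. Rora was at 6.54 and 5.88 TPM, and Rorb exceeded it by 1.47 ± 0.22 on the log2 scale. Of the repressors, Nr1d2 (REV-ERB beta) overlapped Rora at 5.33 and 7.62 TPM, and Nr1d1 (REV-ERB alpha) was below both at 3.31 and 3.21 TPM. Nr1d2 was above Nr1d1 in both libraries, but the ratio of 0.95 ± 0.39 did not exceed 3 SD. All 14 other clock genes were detected (median 5.52 TPM), led by Nfil3 (48.91 and 56.9 TPM), Cry2 (38.82 and 33.94 TPM) and Cry1 (28.19 and 31.28 TPM), and none differed by the rule below. The hour of collection is not given in the labels.

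Start sites of the ROR genes lie far apart. In Rora, the short Rora-202 held 65.99 and 68.94% of TPM, whereas Rora-201, which starts 636 kb upstream, held 9.17 and 10.06%. Rora-201 held 34.2 and 36.1% of counts. Rora-204 and Rora-206, not typed protein-coding, begin at or near the start of Rora-201. Rora-204 held a further 14.95 and 10.7% of TPM and Rora-206 a further 8.12 and 9.27%. In Rorb, Rorb-201 and Rorb-203, with starts 110 kb apart, were close to even, at 46.29 against 41.78% in replicate 1 and 42.82 against 49.56% in replicate 2. The leading Rorb transcript thus differed between the libraries. Transcripts not typed protein-coding that begin near the start of Rorb-201 held a further 11.92% in replicate 1 (Rorb-205) and 7.62% in replicate 2 (Rorb-204). The leading transcript is therefore not a measure of the leading start.

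Of the steroid receptors, the corticoid pair was highest, the progesterone receptor lower, and the estrogen receptors were below 1 TPM. Nr3c1, the glucocorticoid receptor (chromosome 18, 39410545 to 39519421), was at 8.49 and 9.67 TPM. Nr3c2, the mineralocorticoid receptor known for its hippocampal expression, was at 4.31 and 3.79 TPM, and Nr3c1 exceeded it by 1.15 ± 0.26. Estrogen receptors Esr1 (0.2 and 0.19 TPM, 24 and 17 counts) and Esr2 (0.23 and 0.11 TPM, 13 and 5 counts) were both low, and their order changed between the libraries. Pgr, the progesterone receptor, was higher than either at 1.91 and 1.29 TPM.

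Transcript shares of the corticoid receptors place much of the TPM on short forms. Nr3c1-208, of 1891 bases, held 58.59 and 50.21% of TPM but only 167.23 and 137.11 of the 546 and 529 counts. The 6436-base Nr3c1-203, with the coding length of 2376 bases, held 356.68 and 249.46 counts. Nr3c2-206, of 612 bases, held 52.7 and 53.42% of TPM on 21.88 and 16.37 counts. Per-length levels of both receptors therefore rest in part on few reads from short transcripts.

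Components that steroid receptors need were abundant. All 10 chaperones that hold steroid receptors ready for hormone were detected (median 353 TPM), led by Hspa8 (2865.0 and 2982.89 TPM), Hsp90ab1 (1242.33 and 1293.22 TPM) and Hsp90aa1 (1011.46 and 1024.47 TPM). Glucocorticoid targets were also present, 9 of 9 detected (median 25.8 TPM), led by Tsc22d3 (86.95 and 85.88 TPM), Dusp1 (36.77 and 40.52 TPM) and Nfkbia (34.68 and 34.95 TPM). Steroid metabolism was covered by 5 of 12 genes, with a median of 0.625 TPM. The highest were Hsd17b12 (118.5 and 123.45 TPM), Hsd17b10 (100.24 and 104.24 TPM) and Hsd17b4 (83.89 and 98.85 TPM), enzymes that also serve fatty acid metabolism, and Srd5a2 was at 0. No gene of these 3 lists differed by the rule below.

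The estrogen-related receptors, orphans that do not bind estrogen and act with the PGC-1 coactivators on mitochondrial genes, included a pair above the estrogen receptors. Esrra was at 14.9 and 12.08 TPM and Esrrg at 9.27 and 7.22 TPM, with a log2 ratio of Esrra over Esrrg of 0.71 ± 0.04. Esrra exceeded Esr1 by 5.52 ± 0.18. Esrrb, a pluripotency factor, was at 0.2 and 0.23 TPM, on 15 counts in each library, and its range overlapped that of Esr1.

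The NR4A receptors are orphan receptors induced within minutes by calcium and cAMP, and Nr4a2 (Nurr1) is also required in dopamine neurons and marks the cortical subplate and claustrum. Nr4a2 (chromosome 2, 57106830 to 57124003) led with 23.73 and 21.92 TPM. Nr4a3 was at 6.36 and 7.35 TPM and Nr4a1 at 3.5 and 3.69 TPM. Ranges of the 3 genes did not overlap, and Nr4a2 exceeded Nr4a1 by 2.63 ± 0.13 and Nr4a3 by 1.72 ± 0.23 on the log2 scale.

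Sequences upstream of the 3 genes are shown because these were the only receptor windows with 4 or more matches to TGACG, the core of the cAMP response element, a choice made after the matches were counted. They run 5′ to 3′ on the strand of the gene, from RefSeq windows of GRCm38.p6, and capitals mark TGACG or its reverse complement CGTCA. Positions are chr15:101266596-101266845 (plus strand) for Nr4a1, chr2:57124004-57124253 (minus strand) for Nr4a2 and chr4:48045055-48045152 (plus strand) for Nr4a3. The stretch of Nr4a3 ends where its annotated exon begins, and its other match lies beyond it.

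Nr4a1: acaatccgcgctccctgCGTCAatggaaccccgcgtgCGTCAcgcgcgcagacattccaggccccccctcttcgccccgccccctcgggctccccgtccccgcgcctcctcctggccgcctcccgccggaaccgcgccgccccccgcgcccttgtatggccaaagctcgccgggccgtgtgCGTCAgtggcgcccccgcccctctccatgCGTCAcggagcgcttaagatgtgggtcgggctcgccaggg
Nr4a2: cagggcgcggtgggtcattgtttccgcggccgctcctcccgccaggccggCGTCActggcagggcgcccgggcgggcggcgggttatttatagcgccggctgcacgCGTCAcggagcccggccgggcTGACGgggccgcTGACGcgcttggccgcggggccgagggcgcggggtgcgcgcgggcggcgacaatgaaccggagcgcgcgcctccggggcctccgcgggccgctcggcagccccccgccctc
Nr4a3: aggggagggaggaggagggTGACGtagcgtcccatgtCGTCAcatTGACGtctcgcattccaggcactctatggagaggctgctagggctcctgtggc

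On both strands, 76 of all 32851 windows (0.231%) held 4 or more such matches. At least 1 match was in 20.8% of all windows and 26.2% of receptor windows. The full element TGACGTCA, which contains TGACG on each strand, was in 1.79% of all windows and, among receptors, in those of Nr2e1 and Nr6a1, not in those of the NR4A genes. Nr4a2 was mostly read from elsewhere, since Nr4a2-201, at 59.82 and 87.2% of TPM, starts 8965 bases downstream of the start shown. Of the transcripts that begin at that start, Nr4a2-203 held 12.34 and 4.19% and Nr4a2-206 held 4.83 and 2.59%.

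Much of the TPM of Nr4a3 came from a transcript with no coding sequence. Nr4a3-204, an 895-base processed transcript, held 70.75 and 65.73% of TPM but 25.9 and 21.4% of counts. Counting only protein-coding transcripts, Nr4a3 was at 1.86 and 2.52 TPM, below Nr4a1. Its place above Nr4a1 thus depends on this transcript.

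**Figure D2:**
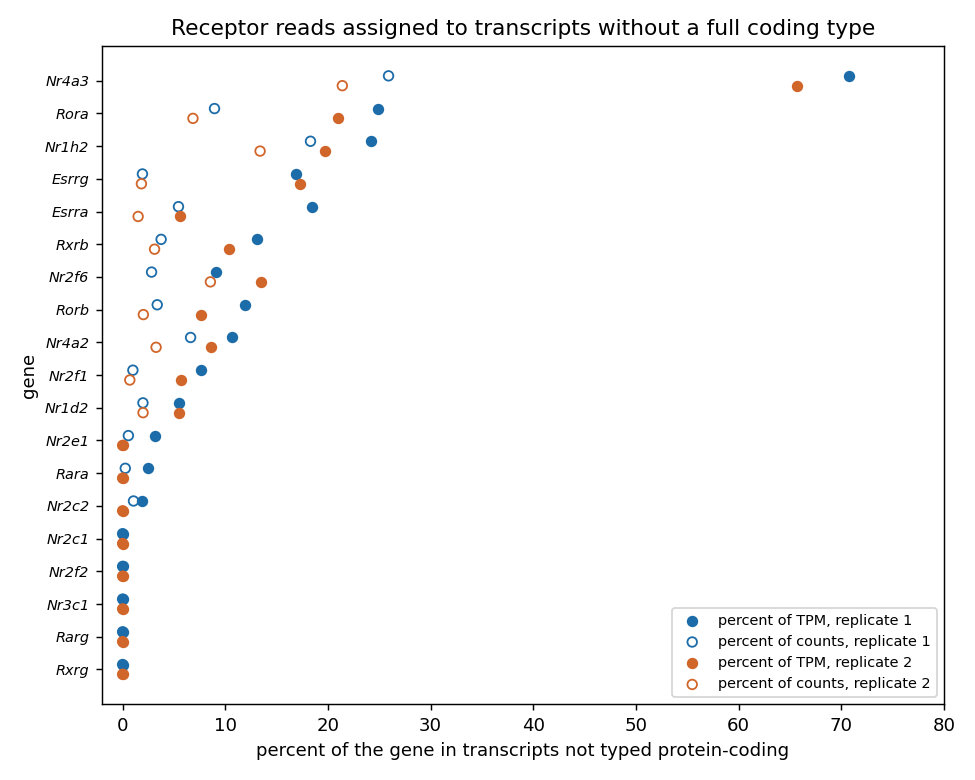
Percent of each receptor in transcripts not typed as protein-coding, by TPM (filled) and by counts (open), for the 19 receptors that reached 5 TPM in each library and have several transcripts in the tables. Nr4a3 stands at 70.75 and 65.73% of TPM, and Rora, Nr1h2, Esrrg and Rxrb also exceed 10% of TPM in both libraries.

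Immediate early genes that respond to the same stimuli were mostly low. Of 13, 9 were detected, and the median was 2.95 TPM. Jun (60.08 and 67.91 TPM), Dusp1 (given above) and Ier2 (18.76 and 21.63 TPM) were highest, and none differed by the rule below.

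The receptors of the NR5, NR6 and NR0 groups, known from gonad, adrenal and germ cells, summed to 2.62 and 2.03 TPM. Nr6a1 was at 0.8 and 1.26 TPM (1.91 and 2.57 TPM by posterior means) and Nr5a2 at 0.19 and 0.18 TPM. Nr5a1 (SF-1, chromosome 2, 38692656 to 38714542), the factor of the ventromedial hypothalamus as well as of adrenal and gonad, had 37 counts (0.69 TPM) in replicate 1 and 0 in replicate 2, which allows up to 0.074 TPM there. Nr0b1 (DAX1), its partner in the same tissues, was at 0.94 and 0.59 TPM (30 and 16 counts), and Nr0b2 (SHP) had 0 counts, which allows up to 0.155 and 0.184 TPM.

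Markers of the hypothalamus moved with Nr5a1. All 7 of the 14 hypothalamic markers that could be compared were lower in replicate 2, 6 of them by the rule below, and the list summed to 62.1 and 19.4 TPM. Avp was at 19.57 and 3.98 TPM and Fezf1 at 13.17 and 3.65 TPM, while Oxt, Nkx2-4 and Rax were at 0 in replicate 2. Their part in the Nr5a1 values was not tested.

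Ordered by mean TPM, the receptors formed 43 neighbouring pairs, of which 15 had ranges that did not overlap between the libraries and 28 did. Nr1h2 stood apart from Nr2f2, Nr2f1 from Rxrb, and Rxrg from Nr2e1. The steps from Nr2e1 to Nr4a2 and from Nr4a2 to Rorb were also clear. Rorb, Nr2c2 and Rarb overlapped, as did each neighbour from Nr3c1 down to Rarg. Of 21 pairs of related receptors compared within a library, 16 kept their sign with a mean larger than 3 SD. The other 5 were Rxrg over Rxrb, Ppard over Ppara, Nr1d2 over Nr1d1, Nr2f1 over Nr2f2 and Esr1 over Esr2. No test was run on these ratios.

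No receptor passed the rule used to compare the libraries. Genes were counted as differing where the mean was at least 50 counts, the ratio of scaled counts at least 2-fold and the 95% counting interval excluded equality. By this rule 0 of 27 receptors compared differed, beside 192 of 13929 genes (1.38%), of which 0.366% of all genes were higher and 1.01% lower in replicate 2. The interval alone, at any size of ratio, excluded equality in 12 of 27 receptors (44.4%), beside 50.5% of all genes, and 74.1% of receptors and 73.6% of all genes were within 1.2-fold. The median log2 ratio of replicate 2 over replicate 1 was 0.058 for receptors and 0.01 for all genes compared. The remaining 17 receptors were below a mean of 50 counts.

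Differences short of 2-fold had intervals away from equality on both sides. Above it were 9 receptors. Largest among them were Nr1d2 (440 and 528 counts, log2 ratio 0.50, interval 0.31 to 0.68) and Rxra (184 and 221 counts, 0.50, interval 0.21 to 0.79), followed by Rarg at 0.39 and Nr4a3 at 0.36. Below it were 3 receptors. Pgr had 186 and 85 counts, a log2 ratio of -0.89 (interval -1.28 to -0.52). Rxrg, with 1843 and 1046 counts, was at -0.58 (interval -0.69 to -0.47). Esrrg, with 622 and 436 counts, was at -0.28 (interval -0.46 to -0.10). These directions hold with TMM, median-of-ratios and total count scaling, whereas with spike-in scaling, which moved the median of all genes to 0.564, Rxrg was at -0.03, Esrrg at 0.28 and Pgr at -0.34, and Rxra and Nr1d2, at 1.05 each, passed the rule. In Pgr the counts differed more than the TPM, and the 6889-base Pgr-204 held 51.47% of TPM in replicate 1 and 26.44% in replicate 2.

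**Figure D3:**
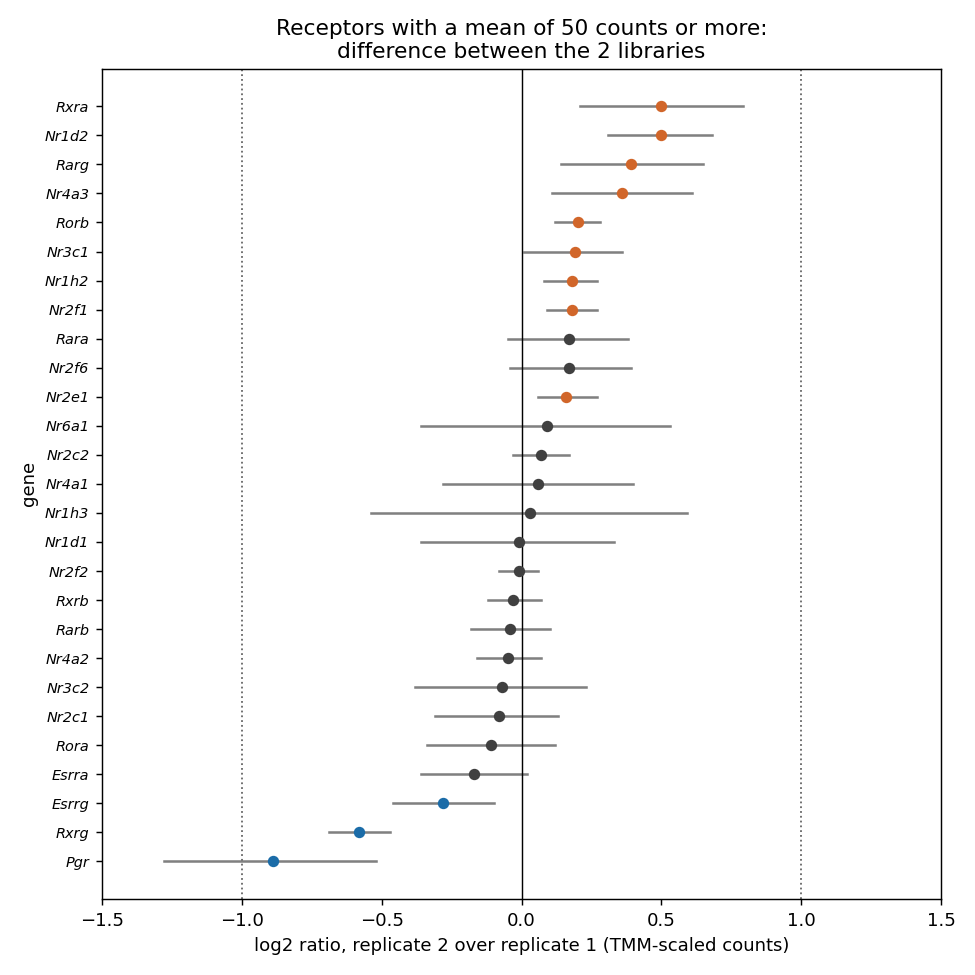
Log2 ratio of TMM-scaled counts, replicate 2 over replicate 1, for the 27 receptors with a mean of at least 50 counts, with 95% exact counting intervals as bars and dotted lines at 2-fold. Coloured points have intervals that exclude equality, 9 above (orange) and 3 below (blue), and no point lies beyond a dotted line. With spike-in scaling 25 of the 27 ratios are above 0 and 2 below, against 15 and 12 here, so Esrrg and others change sign. Intervals then exclude equality in 25 receptors, against 12 here.

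Cell type markers moved between the same libraries. Thalamic markers summed to 147 and 127 TPM, with 5 of 6 compared lower and Tcf7l2 (48.76 and 22.46 TPM) past the rule, though Lhx2 was at 58.14 and 76.03 TPM. Pan-neuronal markers, led by Tubb3 and Stmn2, summed to 4260 and 3900 TPM with 6 of 8 lower. Meningeal and fibroblast markers summed to 410 and 685 TPM with 9 of 10 higher in replicate 2, and Col1a1 and Col1a2 past the rule. Cartilage and bone markers, led by Col2a1 and Ibsp, summed to 16.6 and 57.4 TPM, with all 4 that could be compared past the rule. Radial glia (1780 and 2230 TPM), erythroid (10600 and 13400 TPM), endothelial (175 and 204 TPM), microglial (81.6 and 108 TPM) and telencephalon (503 and 558 TPM) markers had no member past the rule. Midbrain and hindbrain markers summed to 0.7 and 3.29 TPM, with Gata3 past the rule and Hoxa2 and Hoxb4 among those at 0. Whether these markers have a part in the values of Pgr, Rxrg, Esrrg, Rxra, Nr1d2 or Aldh1a1 was not tested.

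Cofactors through which the receptors act were all detected. Among the 14 coactivators (median 16.9 TPM) the highest were Ncoa4 (90.59 and 106.04 TPM), Med1 (56.17 and 63.6 TPM), the Mediator subunit that contacts receptors, and the acetyltransferase Crebbp (40.87 and 43.53 TPM). Among the 10 corepressors (median 36.4 TPM) the highest were Sin3b (168.5 and 159.71 TPM), Ncor1 (154.91 and 170.71 TPM), which binds receptors without ligand, and its deacetylase Hdac3 (131.48 and 131.8 TPM). No cofactor differed by the rule. Every cofactor lay above the receptors' own median except Ppargc1b, the coactivator of the estrogen-related receptors, at 2.1 and 1.03 TPM.

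**Figure D4:**
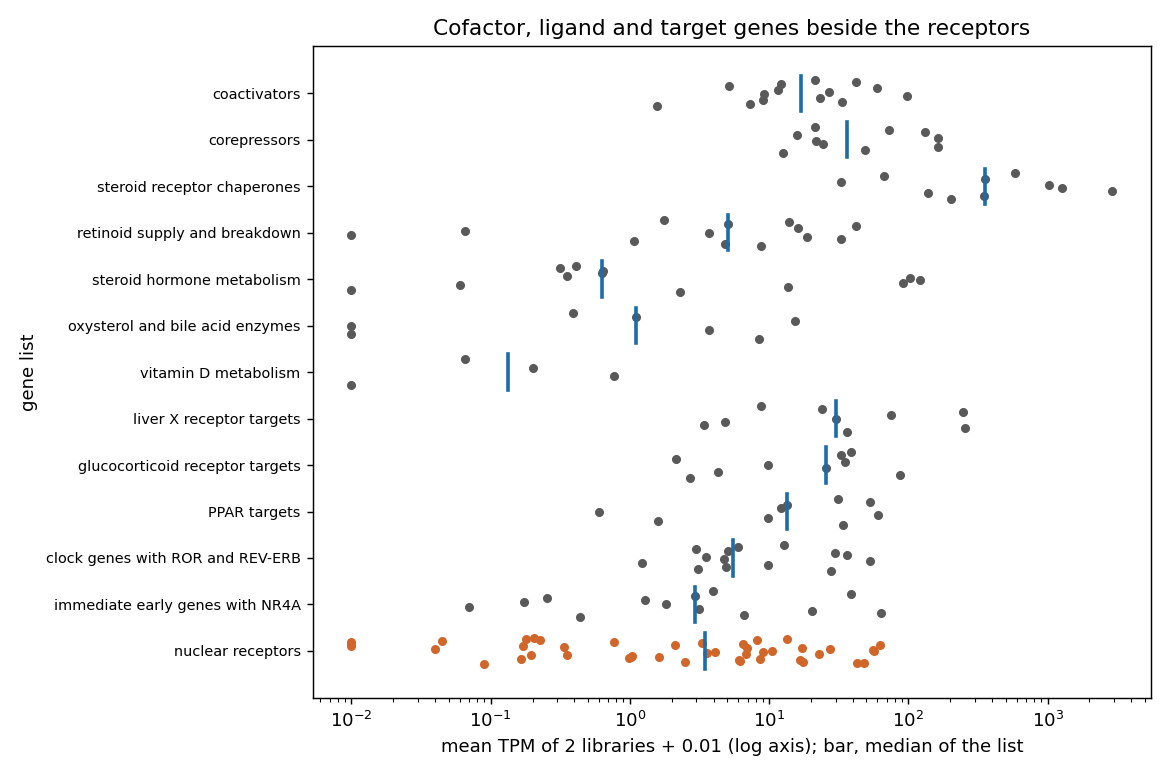
Mean TPM of the 2 libraries plus 0.01 on a log axis for the genes of 12 cofactor, ligand and target lists (grey) and the 44 receptors (orange), with a bar at each median. Chaperones have the highest median, 353 TPM, and vitamin D metabolism the lowest, 0.122 TPM, with the receptors at 3.43 TPM.

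Transcript assignment was mostly stable. The tables list 227 transcripts of the receptors, and 5 receptors have 1 listed transcript each. Of the 19 receptors that reached 5 TPM in each library and have several transcripts, 16 had the same leading transcript in both libraries, the exceptions being Rorb, Nr1h2 and Nr2c1. In Nr2e1, Nr1d2, Nr2f6 and Esrra the leader held at least 80% in both. By posterior means this was so only for Nr2e1 and Nr1d2. The leader of Nr2f6 then held 66.85 and 69.37%, and that of Esrra 74.84 and 84.31%. Shares come from the authors' model and are least certain where transcripts differ by little sequence.

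Some receptors share exons with a gene on the opposite strand, and the strand setting of the counting is not given in the sources used here. This was the case for 9 receptors. In Rarb, 1793 of 3108 exonic bases overlap Top2b (94.56 and 118.41 TPM), in Nr2c2 3533 of 9152 bases overlap Mrps25, and in Nr1i3 3304 of 4414 bases overlap Tomm40l. Counts of 38 receptors were whole numbers (within 0.005) in both libraries. The 6 with fractional counts, Nr1d1, Nr1i3, Nr2c2, Nr2f1, Nr2f6 and Nr3c2, are all among these 9, whereas Rarb, Esrra and Rora had whole counts. A fractional gene count arises where the authors' model divides reads between genes, so the levels of these 6 are less certain.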

How the data were processed

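Total RNA was measured in 2 forebrain libraries of 1 group. Per the submitters' processing notes, the assembly is mm10 and the annotation GENCODE M4, and the program, like the strand setting, is not given in the sources used here. As values, the authors deposited, per the file headers, expected counts without normalization, TPM with spike-ins inside the sum, FPKM per effective length, and each transcript's percent of its gene. Symbols, types and positions came from GENCODE M21 (GRCm38), and 42462 of 43346 identifiers matched. Expected counts were rounded and scaled by TMM (edgeR 4.0.16, R 4.3.3). Log2 ratios used a prior count of 0.5, pair ratios a pseudocount of 0.1 TPM, and intervals are 95% exact Clopper-Pearson, tested on simulated data. Intervals and floors cover counting error only, since amplified reads are not independent molecules. Python 3.11.15 did all other steps. The members, the 12 pathway lists, the 12 marker lists and their tests were chosen with earlier results of these data known. All members are named, with the 3 highest genes of each pathway list, up to 2 of each marker list, and genes that differ, except a few not reported here. Ppargc1b, genes at 0 and Col1a2 were named after their values were seen. Protein sequences were not used here.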

Additional observations from a re-analysis of the deposited data

How the results depend on the processing

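No paired analysis was possible because the series holds 1 group, so replicate numbers pair nothing. The number of receptors detected in both libraries was 11 with a minimum of 10 TPM and between 20 and 30 under the other minimums, units and estimators, and 26 to 29 with either library alone. The median level was 3.61 TPM rescaled without spike-ins and tRNA features and 1.99 in FPKM, against 3.43 TPM, and 3.41 to 3.45 TPM with either library alone. The number of receptors that differed between the libraries was 2 with spike-in scaling (Rxra and Nr1d2, both higher, among 535 genes), 1 with a minimum mean of 20 counts (Ppara, higher, among 470 genes), 3 with no minimum (Ppara and Vdr higher, Nr5a1 lower, among 1097 genes) and 0 with a minimum of 200 (38 genes), against 0 of 192 genes in all. Posterior mean estimates moved the TPM of 21 of 44 receptors by more than 1 SD. The counts of separate neighbours (15, or 18 with posterior means), of pairs above 3 SD (16) and of shared leading transcripts (16) stayed within 1.5 times. Depth limits the 17 receptors below a mean of 50 counts. The main rule did not assess a 2-fold difference for them, and only the lower minimums given above did.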
